A study of Homo sapiens with 9 samples.

Results

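The ZBTB, ZSCAN and ZKSCAN genes are 3 named families of zinc finger transcription factors, taken here as every symbol of the count table that consists of one of those prefixes, a number and, for ZBTB and ZSCAN, at most 1 further letter. The rule found 69 genes among the 25886 symbols of the table, 41 of them ZBTB, 21 ZSCAN and 7 ZKSCAN, and read no measured value. RNA freed of rRNA was sequenced from cells labelled HT29, an established line from a human colorectal adenocarcinoma. The 9 libraries comprised 3 of cells with stable DNMT1 knockdown, 3 of cells with stable DNMT3B knockdown and 3 of cells with the genotype Control. Knockdown cells were made with lentiviruses, and all 3 groups carry the treatment label puromycin selection, so Control cells went through the drug as well. The Control columns of the count table are headed shCTR, a name for a control hairpin, which the labels do not describe. The labels say neither how many hairpins were used nor whether a group is 1 clone or a pool, nor whether replicates came from separate cultures. The p-values rest on how far libraries of a group scatter, and that scatter may be technical. DNMT1 maintains DNA methylation after replication and DNMT3B can place it on unmethylated DNA, and the series was designed around their loss under proteasome inhibitors.

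ZBTB proteins join an amino-terminal BTB domain, through which they pair and recruit co-repressors such as NCOR and BCOR or the ubiquitin ligase scaffold CUL3, to C2H2 zinc fingers that read DNA. A few of them, ZBTB33 (Kaiso), ZBTB4 and ZBTB38, bind DNA that carries methyl-CpG, which ties the family to DNA methylation. ZSCAN and ZKSCAN proteins carry a SCAN domain, which also mediates pairing, and ZKSCAN proteins add a KRAB domain of the kind that recruits the silencing co-repressor TRIM28. Many SCAN genes lie together in clusters of zinc finger genes, the largest at 6p22.

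The promoters of 6 genes are shown because the results below turn on their genes, or on their silence, and because CpG is the substrate of both targeted enzymes. Each runs from 250 bases before to 50 after a gene start, 5′ to 3′ on the gene's strand, with every CpG in capitals, and is the first listed for its gene in RefSeq (GRCh38.p14), which held a promoter for 59 of the 69 members. ZKSCAN3 (chr6:28349697-28349996, plus strand, 10 CpG) and ZSCAN31 (chr6:28356222-28356521, minus strand, 6 CpG) are neighbours at 6p22. ZBTB42 (chr14:104800851-104801150, plus strand, 47 CpG) and ZBTB46 (chr20:63831215-63831514, minus strand, 66 CpG) moved in opposite directions in the knockdowns. ZSCAN18 (chr19:58118355-58118654, minus strand, 36 CpG) and ZSCAN4 (chr19:57668685-57668984, plus strand, 2 CpG) were almost without counts in every group.
ZKSCAN3: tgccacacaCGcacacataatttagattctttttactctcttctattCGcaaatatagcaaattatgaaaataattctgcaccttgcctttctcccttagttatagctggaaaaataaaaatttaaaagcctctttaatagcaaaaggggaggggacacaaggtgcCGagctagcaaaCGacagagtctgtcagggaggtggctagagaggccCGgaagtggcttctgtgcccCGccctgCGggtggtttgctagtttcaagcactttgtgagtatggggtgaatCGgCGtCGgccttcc
ZSCAN31: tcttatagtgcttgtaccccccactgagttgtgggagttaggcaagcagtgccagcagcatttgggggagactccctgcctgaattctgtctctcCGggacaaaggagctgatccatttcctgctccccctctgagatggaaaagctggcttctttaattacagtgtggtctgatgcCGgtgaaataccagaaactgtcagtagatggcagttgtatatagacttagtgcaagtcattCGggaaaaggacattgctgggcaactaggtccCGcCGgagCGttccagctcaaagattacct
ZBTB42: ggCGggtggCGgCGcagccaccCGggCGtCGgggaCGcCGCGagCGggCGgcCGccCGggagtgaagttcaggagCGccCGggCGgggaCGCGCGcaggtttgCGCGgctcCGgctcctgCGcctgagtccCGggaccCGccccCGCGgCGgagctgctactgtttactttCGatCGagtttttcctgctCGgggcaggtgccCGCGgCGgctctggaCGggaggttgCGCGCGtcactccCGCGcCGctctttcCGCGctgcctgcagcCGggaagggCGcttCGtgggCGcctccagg
ZBTB46: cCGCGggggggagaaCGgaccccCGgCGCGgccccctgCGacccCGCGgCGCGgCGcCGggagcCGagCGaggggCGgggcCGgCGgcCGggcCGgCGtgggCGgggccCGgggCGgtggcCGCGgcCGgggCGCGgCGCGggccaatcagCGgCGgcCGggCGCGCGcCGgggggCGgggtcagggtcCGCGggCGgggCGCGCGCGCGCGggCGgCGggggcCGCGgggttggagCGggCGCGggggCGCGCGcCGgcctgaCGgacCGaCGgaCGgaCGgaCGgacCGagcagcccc
ZSCAN18: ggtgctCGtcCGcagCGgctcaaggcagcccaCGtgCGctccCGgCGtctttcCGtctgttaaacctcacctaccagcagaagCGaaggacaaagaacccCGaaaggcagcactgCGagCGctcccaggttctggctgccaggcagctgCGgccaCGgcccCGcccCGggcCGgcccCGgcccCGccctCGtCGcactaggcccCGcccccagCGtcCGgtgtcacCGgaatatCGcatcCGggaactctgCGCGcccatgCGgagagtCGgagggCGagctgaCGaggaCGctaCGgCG
ZSCAN4: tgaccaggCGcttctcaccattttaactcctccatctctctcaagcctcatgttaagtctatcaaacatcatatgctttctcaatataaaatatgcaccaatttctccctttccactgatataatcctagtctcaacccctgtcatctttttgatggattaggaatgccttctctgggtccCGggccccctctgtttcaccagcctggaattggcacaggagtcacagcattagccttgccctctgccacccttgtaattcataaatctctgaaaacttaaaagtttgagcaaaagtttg

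The first-listed promoters of 53 expressed members held 1 to 66 CpG with a median of 24, and those of 6 members without enough counts to test held 2 to 42 with a median of 15. Over the 27305 genes of the promoter table, expressed here or not, the median was 14. As many CpG as in the ZBTB46 promoter were found in 0.0220% of all these promoters, as many as in that of ZBTB42 in 2.40%, as many as in that of ZSCAN18 in 12.5%, and as many as in those of ZKSCAN3 and ZSCAN31 in 56.0% and 65.6%. The 4 letters CGCG hold a pair of neighbouring CpG as Kaiso can bind when methylated. They were in 40 of the 53 promoters of expressed members (75.5%), in 4 of the 6 of untested members (66.7%) and in 49.6% of all promoters. The share over all expressed genes was not computed, so these gaps cannot be read as a trait of the families. Kaiso's unmethylated consensus, TCCTGCNA on either strand, was in 3 of the 53 (ZBTB47, ZSCAN32 and ZBTB7C) and in 4.62% of all promoters. These are counts of letters in 1 window per gene, several genes have further starts, and no methylation was measured in these libraries.

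Libraries held 23421179 to 24168025 counts in DNMT1 knockdown, 18772187 to 25955343 in DNMT3B knockdown and 26923932 to 33666224 in Control, so Control libraries were the deepest. DNMT1 mRNA averaged 252 ± 4.68 CPM (counts scaled to the TMM-adjusted library size) in DNMT1 knockdown, against 458 ± 10.3 CPM in Control (SD, n = 3 each), and DNMT3B mRNA averaged 30.5 ± 2.45 CPM in DNMT3B knockdown, against 61.3 ± 1.17 CPM in Control. Of 11 colon epithelial markers, the keratins KRT8, KRT18 and KRT19, EPCAM, CDH1 and the intestinal factor CDX2 (38.2 CPM in Control) were well expressed. CEACAM5 and CDX1 were at 0 in all Control libraries, and VIL1 (0.905 CPM) and LGALS4 (0.295 CPM) were scarcely detected there. KRT20 was low too, at 1.03 CPM in Control, 1.63 CPM with DNMT1 knockdown and 2.02 CPM with DNMT3B knockdown. The name of the line is taken from the labels and was not tested. The summed level of 7 leukocyte markers was 1.54 to 2.17 CPM in DNMT1 knockdown, 2.05 to 2.37 CPM in DNMT3B knockdown and 1.97 to 2.31 CPM in Control, and CD3D was at 0 in DNMT1 knockdown and Control. That of 7 stromal and endothelial markers, most of it COL1A1, was 20.9 to 25.8 CPM in DNMT1 knockdown, 30.9 to 31.6 CPM in DNMT3B knockdown and 18.5 to 22.4 CPM in Control, with DCN at 0 throughout; its part in the results was not tested.

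Most members were expressed. Of the 69, 61 had enough counts to be tested, and all of those 61 also had at least 1 CPM in 3 libraries. Levels of different genes are compared per kb of all annotated exon (GENCODE 29), though the annotation used for counting is not stated. On that scale the Control level of the 61 ran from 0.207 to 33.9 CPM per kb with a median of 6.10. ZBTB7B, the CD4 T cell lineage factor also known as ThPOK, stood highest at 33.9 ± 0.918 CPM per kb in Control (SD, n = 3), followed by ZBTB7A at 32 ± 0.985, a gap about as wide as their summed SDs. ZBTB20, a repressor known from liver and brain, came next at 23.8 ± 1.04, clear of ZBTB40 at 17 ± 0.403. The rank of ZBTB20 is uncertain, since a transcript on the same strand covers 47.7% of its exon bases. ZBTB40 and ZKSCAN8 (16.7 ± 0.555) were again within their spread. The lowest tested members were ZBTB8B (0.207 ± 0.0314 CPM per kb), ZBTB7C (0.211 ± 0.0237), ZKSCAN7 (0.338 ± 0.0248) and ZSCAN12 (0.539 ± 0.0926). ZBTB8B and ZBTB7C were within their spread, and ZBTB8B shares 11.5% of its exon bases with a gene on the same strand.

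**Figure D1:**
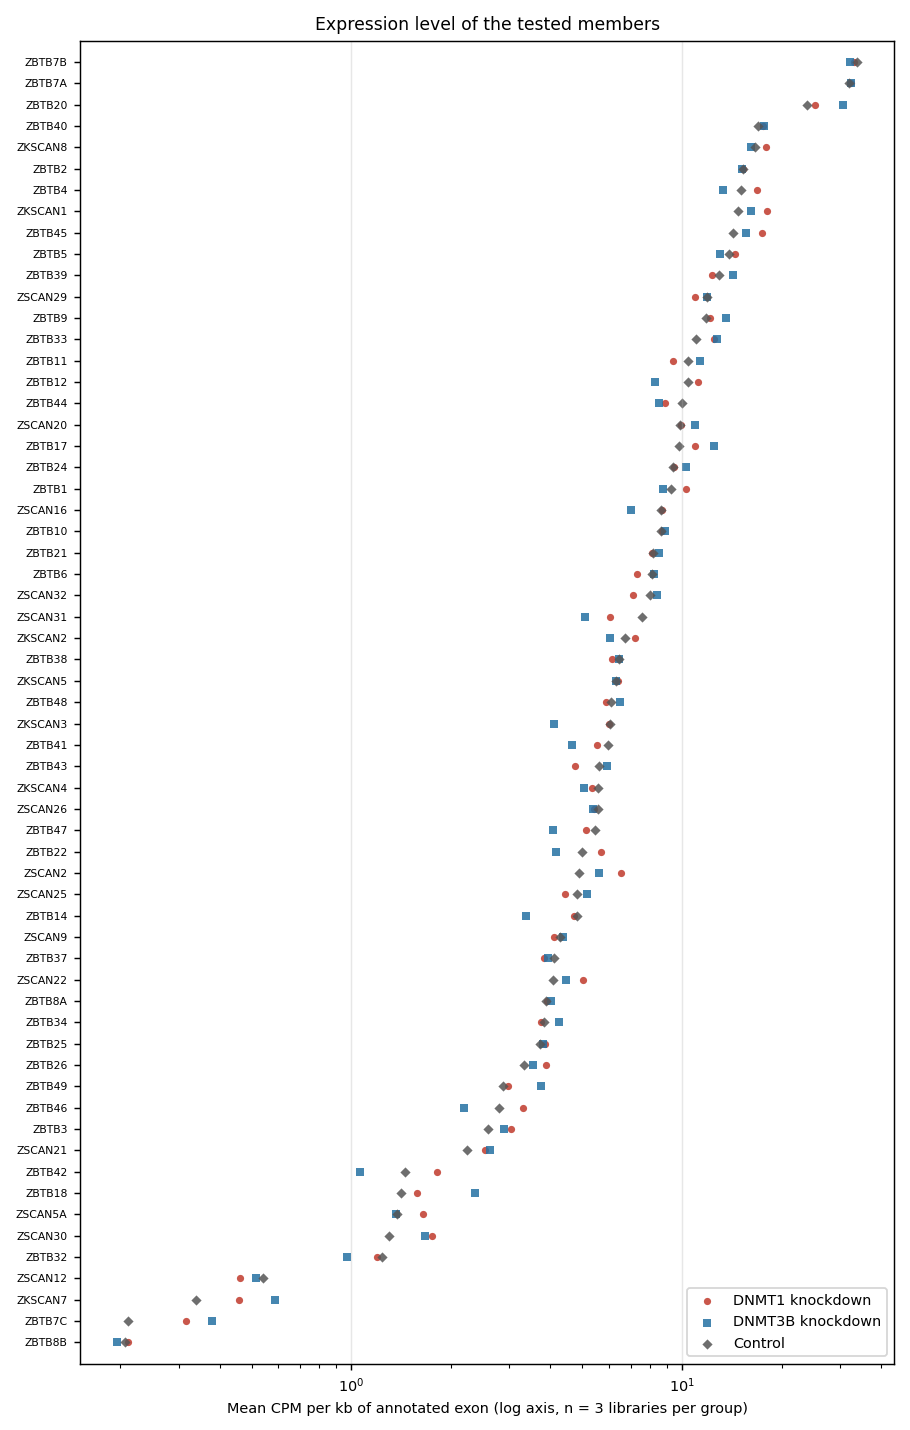
Mean level of each of the 61 tested members in CPM per kb of annotated exon (log axis), with circles for DNMT1 knockdown, squares for DNMT3B knockdown and diamonds for Control (n = 3 libraries each). Control levels span 0.207 to 33.9, and the symbols of a gene lie close together at most levels.

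The 8 members without enough counts were 7 ZSCAN genes and ZBTB16. ZBTB16 (PLZF), the factor of innate-like T cells, and ZSCAN1 had 0 counts in all 9 libraries, which allows up to 3 counts or 0.0895 to 0.162 CPM per library (counting error only). ZSCAN4, known in mouse from the 2-cell embryo, had 1 count over the 9 libraries, in DNMT3B knockdown. ZSCAN18, reported as promoter-methylated in gastrointestinal cancers, had 2 counts, 1 in DNMT1 knockdown and 1 in Control. ZSCAN23 had 2 counts, ZSCAN5C 6, ZSCAN5B 13 and ZSCAN10 16. No rise of these genes was detectable at this depth in either knockdown.

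With DNMT1 knockdown 17 of the 61 tested members were called higher and 8 lower than Control at an adjusted p below 0.05. That is 41.0% of the members, next to 41.8% of all 16660 tested genes (21% higher and 20.8% lower), a share close to that of all genes. Without Control replicate 1 the members called lower numbered 5. The members' median log2 fold change was 0.016, against -0.0025 over all tested genes. No tested member changed 2-fold: the largest change was 0.58 (ZBTB7C), and the median absolute change was 0.10, against 0.15 over all genes. In bulk RNA, a lower level in each cell and fewer cells with the transcript cannot be told apart.

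With DNMT3B knockdown 17 members were called higher and 14 lower than Control, 50.8% of the 61 against 47.7% of all tested genes (23.1% higher and 24.6% lower). Their median log2 fold change was 0.022, against 0.0023 over all tested genes. The largest member changes were 0.85 (ZBTB7C), 0.80 (ZKSCAN7) and 0.75 (ZBTB18) upwards, and -0.57 (ZSCAN31), -0.56 (ZKSCAN3) and -0.50 (ZBTB14) downwards. DNMT1 and DNMT3B knockdowns were each set against the same 3 Control libraries. Set directly against DNMT3B knockdown, DNMT1 knockdown had 20 members higher and 16 lower, 59.0% of the members against 45.2% of all tested genes (24.3% higher and 20.9% lower), with a median of 0.0092 against 0.00091 over all genes.

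The libraries of DNMT1 knockdown and Control did not overlap at all for 29 of the 61 members (18 above and 11 below Control), 47.5% of them against 49.4% of all tested genes (24.8% above and 24.6% below). For DNMT3B knockdown and Control this held for 37 members (21 above and 16 below), 60.7% against 54.1% of all tested genes (26.6% above and 27.6% below). Between DNMT1 and DNMT3B knockdown it held for 36 members (19 above and 17 below), 59.0% against 52.2% (27.7% above and 24.5% below). 

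**Figure D2:**
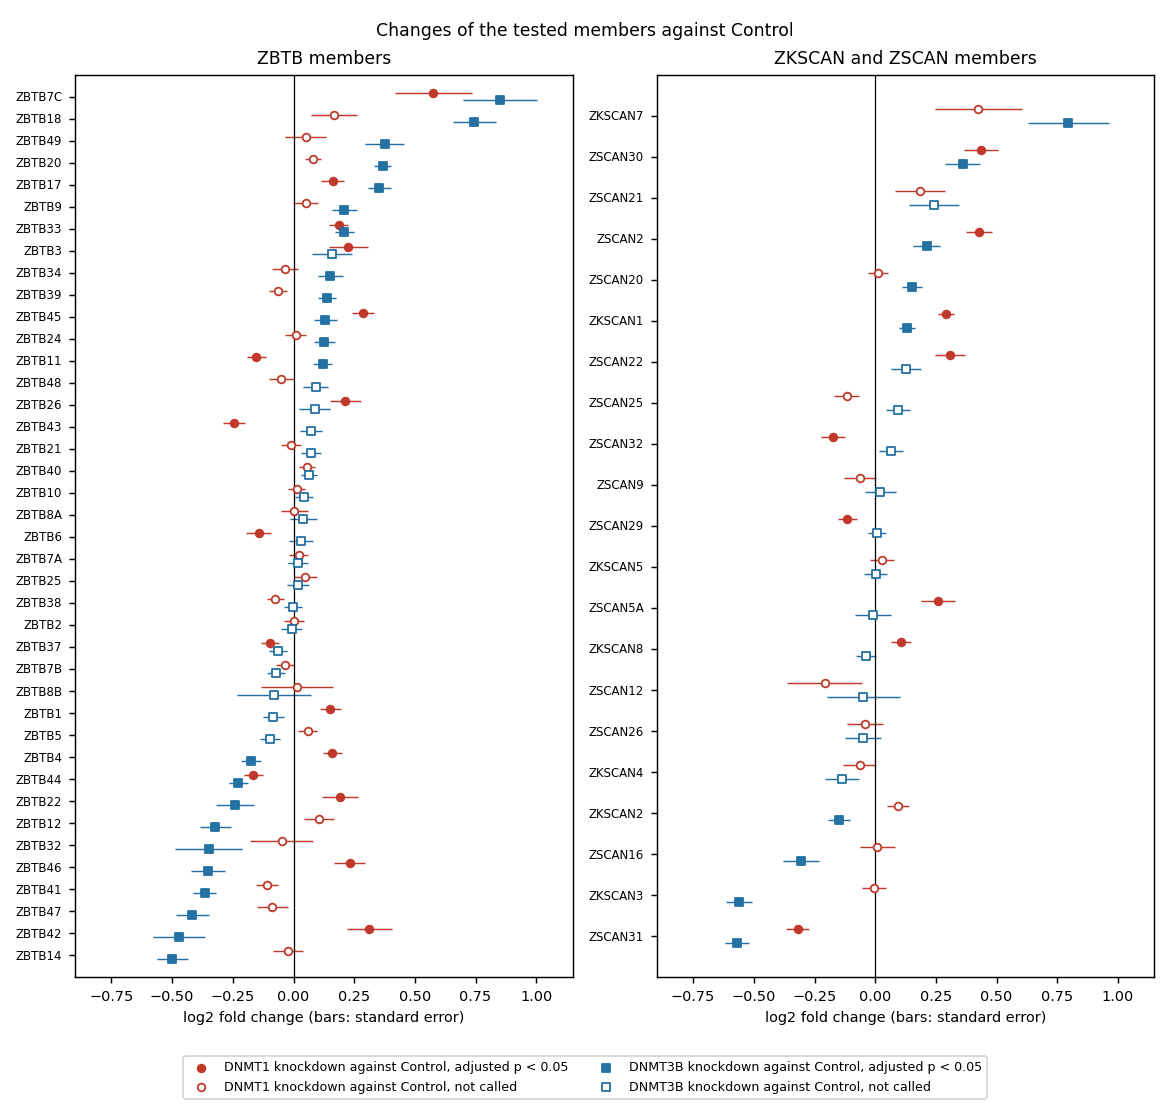
Log2 fold change against Control (x axis, bars for the standard error) of the 61 tested members, with circles for DNMT1 knockdown and squares for DNMT3B knockdown, filled where the adjusted p was below 0.05, in order of the DNMT3B knockdown change. ZBTB7C heads the ZBTB panel with 0.58 and 0.85, and ZSCAN31 closes the other panel with -0.32 and -0.57.

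Of the 3 methyl-CpG readers 2 rose with DNMT1 knockdown, and 1 rose and 1 fell with DNMT3B knockdown. Of all tested genes, 41.8% were called in either direction with DNMT1 knockdown and 47.7% with DNMT3B knockdown. ZBTB33, or Kaiso (chromosome X, 120250752 to 120258398, GRCh38, as for all positions that follow), was at 68.5, 66.4 and 64.9 CPM in the DNMT1 knockdown libraries, 67.9, 67.5 and 67.6 CPM in the DNMT3B knockdown libraries and 58.9, 59.96 and 56.9 CPM in the Control libraries. Every knockdown library lay above every Control library, with log2 fold changes of 0.19 ± 0.039 (± SE, edgeR adjusted p = 0.00028) and 0.21 ± 0.039 (adjusted p = 5e-05), and the knockdowns overlapped each other (adjusted p = 0.671). ZBTB4 (chromosome 17, 7459366 to 7484263), which binds single methylated CpG, was at 100.3, 101 and 108 CPM with DNMT1 knockdown, 83.1, 77.9 and 84 CPM with DNMT3B knockdown and 88.6, 95.6 and 93 CPM in Control. The 3 groups did not overlap: ZBTB4 rose with DNMT1 knockdown (0.16 ± 0.04, adjusted p = 0.00153) and fell with DNMT3B knockdown (-0.17 ± 0.041, adjusted p = 0.000669), and was 1.26-fold higher in DNMT1 than in DNMT3B knockdown (adjusted p = 5.32e-08). ZBTB38 (chromosome 3, 141324213 to 141449792), which also binds methylated CpG, was at 89.1, 84.7 and 88.4 CPM with DNMT1 knockdown, 93, 89.5 and 92.7 CPM with DNMT3B knockdown and 93.9, 92.2 and 89.97 CPM in Control. Its DNMT1 knockdown libraries lay just below those of both other groups, by -0.07 ± 0.037 against Control, and it passed no test (adjusted p = 0.104, 0.951 and, between the knockdowns, 0.124).

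Around Kaiso, its partner CTNND1 (p120 catenin) rose with DNMT1 knockdown (0.23, adjusted p = 0.00065) and was not called with DNMT3B knockdown (0.09, adjusted p = 0.165). MMP7, a matrix metalloproteinase reported as a Kaiso target, stood at 0.454, 0.298 and 0.416 CPM with DNMT1 knockdown, 1.31, 1.45 and 2.07 CPM with DNMT3B knockdown and 0.328, 0.447 and 0.321 CPM in Control. MMP7 was a low gene that rose with DNMT3B knockdown (log2 fold change 2.16 ± 0.26, adjusted p = 3.31e-08). WNT11 had too few counts to test.

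ZBTB24 (chromosome 6, 109462594 to 109483237) is mutated in a form of the ICF immunodeficiency syndrome whose first form is caused by mutations in DNMT3B, and is known to activate CDCA7. Its level was 51, 51.7 and 54.3 CPM with DNMT1 knockdown, 57.1, 55.5 and 57.6 CPM with DNMT3B knockdown and 54.7, 50.8 and 50.4 CPM in Control. The DNMT3B knockdown libraries were all slightly above the others, by 0.13 ± 0.043 against Control (adjusted p = 0.0153), while DNMT1 knockdown overlapped Control (0.01, adjusted p = 0.887). Both that call and the one between the knockdowns (-0.12, adjusted p = 0.0293) were lost when single libraries were left out (adjusted p up to 0.0752 and 0.111). CDCA7 was not called in any comparison (85.9, 84.3 and 83.8 CPM with DNMT1 knockdown, DNMT3B knockdown and in Control). HELLS, the chromatin remodeller that CDCA7 recruits and a further ICF gene, fell in both knockdowns, to 95.4 ± 5.38 CPM with DNMT1 knockdown (adjusted p = 1.15e-06) and 89.5 ± 3.46 CPM with DNMT3B knockdown (adjusted p = 3.53e-09), against 115 ± 1.23 CPM in Control.

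Among 6 members tied to MYC and the cell cycle, 1 rose and 0 fell with DNMT1 knockdown, and 2 rose and 1 fell with DNMT3B knockdown, with medians of 0.035 and 0.0061 on the log2 scale. That is 16.7% and 50% of them, against 41.8% and 47.7% of all tested genes. ZBTB17, or MIZ1 (chromosome 1, 15941869 to 15976132), which activates CDKN1A and CDKN2B unless MYC binds it, was at 44.7, 46.9 and 47.7 CPM with DNMT1 knockdown, 55.8, 52.9 and 50.6 CPM with DNMT3B knockdown and 39.3, 42.5 and 43 CPM in Control. The groups formed 3 separate steps with Control lowest (log2 fold changes 0.16 ± 0.047, adjusted p = 0.00654, and 0.35 ± 0.047, adjusted p = 2.04e-07). The DNMT1 knockdown call was lost without Control replicate 1 (adjusted p = 0.061). ZBTB49, a partner of MIZ1 at CDKN1A, was at 8.75, 8.78 and 8.27 CPM with DNMT1 knockdown, 11.7, 11 and 9.73 CPM with DNMT3B knockdown and 8.32, 8.53 and 8.09 CPM in Control, higher with DNMT3B knockdown in all 3 libraries (0.38 ± 0.08, adjusted p = 0.000249).

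ZBTB14, or ZF5 (chromosome 18, 5289019 to 5297053), first described as a repressor of MYC, was at 18.5, 19.8 and 20.03 CPM with DNMT1 knockdown, 14, 12.5 and 15.1 CPM with DNMT3B knockdown and 19.7, 19.8 and 19.7 CPM in Control. Its 3 DNMT3B knockdown libraries lay well below all others, at 70.8% of Control (-0.50 ± 0.065, adjusted p = 1.48e-07), while DNMT1 knockdown overlapped Control (adjusted p = 0.785). ZBTB7A, a repressor of glycolysis genes and of fetal globin, passed no test, at 176, 186 and 196 CPM with DNMT1 knockdown, 194, 173 and 189 CPM with DNMT3B knockdown and 177, 186 and 187 CPM in Control (log2 fold changes 0.02 ± 0.041 and 0.02 ± 0.041, adjusted p = 0.718 and 0.721). ZBTB2 and ZBTB5, both known as repressors of CDKN1A, were not called against Control either (ZBTB5 was at 0.06 with DNMT1 and -0.10 with DNMT3B knockdown, adjusted p = 0.268 and 0.0543). Of the genes around MIZ1, MYC itself rose in both knockdowns (711 ± 11.5 CPM with DNMT1 knockdown, 756 ± 10.1 CPM with DNMT3B knockdown and 622 ± 2.65 CPM in Control). CDKN1A, the gene for p21, was lower with DNMT1 knockdown (-0.16, adjusted p = 0.000919) and higher with DNMT3B knockdown (0.79, adjusted p = 8.54e-18). CDKN2B, the gene for p15, was likewise lower (-0.41, adjusted p = 2.32e-05) and higher (0.19, adjusted p = 0.0197), and MAX was not called against Control (adjusted p = 0.519 and 0.0504).

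Neither telomere binder passed a test against Control. ZBTB10, which binds variant telomere repeats, was at 92.2, 88.4 and 86.3 CPM with DNMT1 knockdown, 88.8, 93.2 and 90.7 CPM with DNMT3B knockdown and 88.4, 89.2 and 87.1 CPM in Control (adjusted p = 0.816 and 0.365). ZBTB48, or TZAP, which limits telomere length, was at 27.2, 27.4 and 24.9 CPM with DNMT1 knockdown, 29.5, 29.9 and 28.5 CPM with DNMT3B knockdown and 26.7, 27.5 and 28.2 CPM in Control. It was not called against Control (adjusted p = 0.469 and 0.149) and was lower in DNMT1 than in DNMT3B knockdown by a margin (-0.14, adjusted p = 0.0316) that DESeq2 did not call (adjusted p = 0.0665). That call was also lost without DNMT1 knockdown replicate 3 (adjusted p = 0.183) and without DNMT3B knockdown replicate 1 or 2 (adjusted p = 0.0748 and 0.0882).

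A list of 13 BTB factors known mostly from the differentiation of blood, muscle, liver or brain cells held 12 tested genes, of which 4 rose and 2 fell with DNMT1 knockdown and 4 rose and 4 fell with DNMT3B knockdown (median log2 fold changes 0.067 and -0.026). These are 50% and 66.7% of the 12, against 41.8% and 47.7% of all tested genes. The summed leukocyte markers stayed at or below 2.37 CPM in every library. ZBTB7C (chromosome 18, 48026673 to 48410752), a relative of ZBTB7A, was at 2.43, 2.47 and 2.33 CPM with DNMT1 knockdown, 3.31, 2.53 and 2.83 CPM with DNMT3B knockdown and 1.76, 1.68 and 1.41 CPM in Control, from 44 to 81 reads a library. Every knockdown library was above every Control library (0.58 ± 0.16, adjusted p = 0.00391, and 0.85 ± 0.15, adjusted p = 2.59e-05), a rise of 1.49-fold and 1.80-fold. ZBTB18, or RP58 (chromosome 1, 244048939 to 244057476), a repressor needed in cortical neurons, was at 6.19, 6.44 and 5.90 CPM with DNMT1 knockdown, 8.88, 9.64 and 9.23 CPM with DNMT3B knockdown and 5.13, 5.92 and 5.52 CPM in Control. It rose 1.68-fold with DNMT3B knockdown (adjusted p = 2.23e-08) and overlapped Control with DNMT1 knockdown (adjusted p = 0.163), and the knockdowns differed (-0.58 ± 0.09, adjusted p = 3.34e-06).

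ZBTB20 (chromosome 3, 114314501 to 115147271) held more reads than any other member, at 816, 792 and 800.0 CPM with DNMT1 knockdown, 989.7, 971 and 976 CPM with DNMT3B knockdown and 758, 793 and 727 CPM in Control. DNMT3B knockdown was highest in all 3 libraries (0.37 ± 0.034, adjusted p = 1.52e-10), and DNMT1 knockdown overlapped Control (0.08, adjusted p = 0.0581), a test that passed under 7 of the 17 alternatives, limma-voom among them (adjusted p = 0.0296). An unnamed transcript on the same strand covers 47.7% of its exon bases, so its value is uncertain. ZBTB42 (chromosome 14, 104800596 to 104804712), mutated in a congenital contracture syndrome, was at 7.02, 7.42 and 6.86 CPM with DNMT1 knockdown, 3.81, 4.63 and 4.02 CPM with DNMT3B knockdown and 5.79, 5.29 and 6.0 CPM in Control. The groups did not overlap, with DNMT1 knockdown above Control (0.31 ± 0.093, adjusted p = 0.00727), DNMT3B knockdown below it (-0.47 ± 0.11, adjusted p = 0.000435), and a 1.72-fold difference between the knockdowns, the largest of any tested member (adjusted p = 3.04e-07).

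ZBTB46 (chromosome 20, 63743666 to 63831244), the factor that marks classical dendritic cells, was at 18.3, 21 and 20.9 CPM with DNMT1 knockdown, 12.6, 13.3 and 14.1 CPM with DNMT3B knockdown and 16.3, 16.9 and 18 CPM in Control. It rose with DNMT1 knockdown (0.23 ± 0.065, adjusted p = 0.00423), fell with DNMT3B knockdown (-0.35 ± 0.07, adjusted p = 9.7e-05) and was 1.50-fold higher in DNMT1 than in DNMT3B knockdown (adjusted p = 3.74e-08). ZBTB1, needed for lymphoid development, rose with DNMT1 knockdown alone among the tests against Control (0.15, adjusted p = 0.00548; -0.08, adjusted p = 0.127 with DNMT3B knockdown) and differed between the knockdowns (0.23, adjusted p = 7.6e-05). ZBTB44 was lower in both (-0.17 and -0.23, adjusted p = 0.000781 and 1.19e-05). ZBTB11, a nucleolar factor needed for neutrophil development, was lower with DNMT1 knockdown (-0.15, adjusted p = 0.00194) and higher with DNMT3B knockdown (0.12, adjusted p = 0.0109). The DNMT3B knockdown call of ZBTB11 was lost without Control replicate 3 (adjusted p = 0.0649), and its antisense RNA ZBTB11-AS1 covers 12.0% of its exon bases. ZBTB32, a low repressor known from lymphocytes, was called lower with DNMT3B knockdown (-0.35, adjusted p = 0.0347), a call that DESeq2 did not make. ZBTB7B, ZBTB25 and ZBTB40 passed no test.

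**Figure D3:**
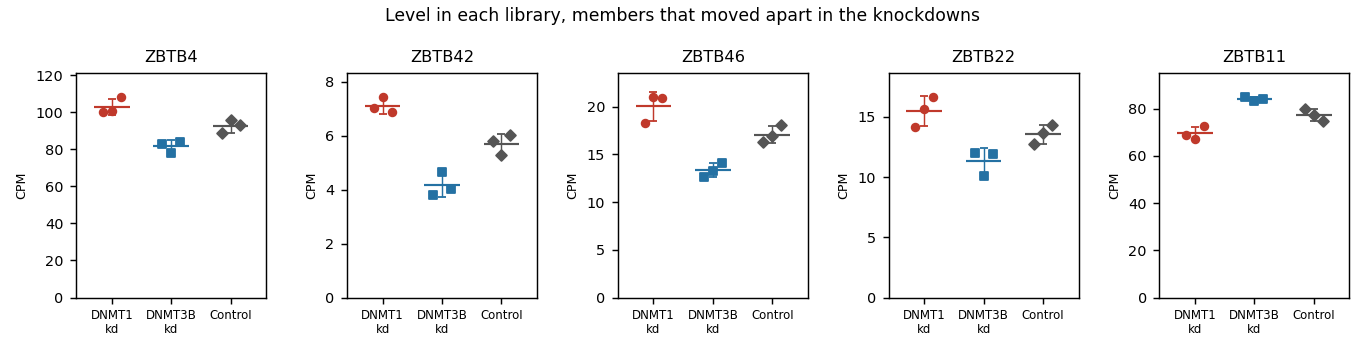
CPM in each library (points), with group mean and SD (n = 3), of ZBTB4, ZBTB42, ZBTB46, ZBTB22 and ZBTB11 in DNMT1 knockdown, DNMT3B knockdown and Control. DNMT1 knockdown is highest and DNMT3B knockdown lowest in all but ZBTB11, where the order is turned round; for ZBTB42 the means are 7.10, 4.15 and 5.69 CPM.

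The ZBTB members outside these roles that were called against Control changed by less than 0.5 on the log2 scale. ZBTB45, reported to act in glial development in mouse, was at 55.8, 59.8 and 63 CPM with DNMT1 knockdown, 55.1, 49.5 and 55.2 CPM with DNMT3B knockdown and 49.3, 48.5 and 48.7 CPM in Control, above Control in every knockdown library (0.29 ± 0.046, adjusted p = 8.19e-06, and 0.13 ± 0.047, adjusted p = 0.0226). Its DNMT3B knockdown call was lost without DNMT3B knockdown replicate 1 or 3, or Control replicate 3 (adjusted p up to 0.119). ZBTB43 was at 34.3, 32.4 and 33.7 CPM with DNMT1 knockdown, 42.9, 42.1 and 40.1 CPM with DNMT3B knockdown and 39.8, 38.7 and 40.5 CPM in Control, lowest with DNMT1 knockdown in all 3 libraries (-0.25 ± 0.047, adjusted p = 7.41e-05). ZBTB47 was at 19.1, 19.4 and 19.4 CPM with DNMT1 knockdown, 16.8, 14.7 and 14.6 CPM with DNMT3B knockdown and 18.8, 21.3 and 21.6 CPM in Control, lowest with DNMT3B knockdown (-0.42 ± 0.067, adjusted p = 4.81e-06), where ZBTB41 (-0.37, adjusted p = 1.18e-07) and ZBTB12 (-0.32, adjusted p = 0.00013) were lower too. ZBTB22 was at 14.1, 15.7 and 16.6 CPM with DNMT1 knockdown, 12, 10.1 and 11.9 CPM with DNMT3B knockdown and 12.7, 13.6 and 14.3 CPM in Control, with DNMT1 knockdown overlapping Control. Its calls against Control (0.19, adjusted p = 0.0335, and -0.24, adjusted p = 0.0105) were each lost when a library was left out (adjusted p up to 0.2 and 0.0827), while its difference between the knockdowns was 0.43 ± 0.079 (adjusted p = 3.34e-05).

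Smaller calls with DNMT1 knockdown were ZBTB26 (0.21, adjusted p = 0.00716), ZBTB3 (0.22, adjusted p = 0.0239), ZBTB6 (-0.14, adjusted p = 0.0206) and ZBTB37 (-0.10, adjusted p = 0.0354), all 4 of them lost when at least 1 single library was left out. With DNMT3B knockdown they included ZBTB39 (0.14, adjusted p = 0.00245) and ZBTB34 (0.15, adjusted p = 0.0181), of which the ZBTB34 call was lost without DNMT3B knockdown replicate 3 or Control replicate 3. ZBTB21, ZBTB8A and ZBTB8B passed no test.

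At 6p22, 8 of 9 SCAN members were tested, and 0 rose and 3 fell with DNMT3B knockdown, while 1 rose and 1 fell with DNMT1 knockdown (median log2 fold changes -0.093 and -0.052). The 37.5% called with DNMT3B knockdown and the 25.0% with DNMT1 knockdown were below the 47.7% and 41.8% of all tested genes. In chromosome order the tested genes are ZSCAN16, ZKSCAN8, ZSCAN9, ZKSCAN4, ZSCAN26, ZSCAN31, ZKSCAN3 and ZSCAN12. The largest falls were in 2 neighbours whose spans overlap. ZKSCAN3 (chromosome 6, 28349914 to 28369177), a repressor of autophagy genes first described in colorectal cancer, was at 29.2, 28.5 and 29.96 CPM with DNMT1 knockdown, 19.5, 20.4 and 19.8 CPM with DNMT3B knockdown and 29.6, 29.9 and 28.4 CPM in Control. It fell to 67.8% of Control with DNMT3B knockdown (-0.56 ± 0.053, adjusted p = 2.53e-10), overlapped Control with DNMT1 knockdown (-0.00 ± 0.049, adjusted p = 0.965) and differed between the knockdowns (0.56 ± 0.055, adjusted p = 5.52e-10).

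ZSCAN31 (chromosome 6, 28324693 to 28356271) was at 30.7, 30.4 and 29 CPM with DNMT1 knockdown, 25.3, 25 and 25.3 CPM with DNMT3B knockdown and 38.8, 36.3 and 37.2 CPM in Control. It formed 3 separate levels, lowest with DNMT3B knockdown at 67.3% of Control (-0.57 ± 0.049, adjusted p = 3.39e-11) and intermediate with DNMT1 knockdown at 80.1% (-0.32 ± 0.048, adjusted p = 2.12e-06; between the knockdowns 0.25, adjusted p = 0.000194). ZKSCAN3 and ZSCAN31 lie on opposite strands, their spans overlap by 6358 bases and their annotated exons share 0 bases. Their promoters, printed above, hold fewer CpG than the expressed members' median of 24.

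ZSCAN16, which fell as well, was 11.6, 9.30 and 11.5 CPM on average in DNMT1 knockdown, DNMT3B knockdown and Control (-0.31 ± 0.074 with DNMT3B knockdown, adjusted p = 0.000973), and shares 14.8% of its exon bases with its antisense RNA. ZKSCAN8, the highest of the group, was called higher with DNMT1 knockdown (0.11, adjusted p = 0.0337), a call DESeq2 did not make. Its DNMT1 knockdown libraries overlapped those of Control. ZSCAN9, ZKSCAN4, ZSCAN26 and ZSCAN12, which lie between and beside the 3, passed no test, and ZSCAN23 was not tested. Of 6 genes reported as ZKSCAN3 targets, 5 were tested. The autophagy gene MAP1LC3B rose with DNMT3B knockdown (0.43, adjusted p = 1.04e-10), as did the autophagy kinase ULK1 (0.12, adjusted p = 0.025), which also rose with DNMT1 knockdown (0.24, adjusted p = 7.44e-05), while WIPI2, also of autophagy, fell (-0.18, adjusted p = 0.000133). VEGFA fell in both knockdowns (-0.19 with DNMT1 and -0.09 with DNMT3B knockdown, adjusted p = 9.05e-05 and 0.0388). For both ULK1 and VEGFA, the DNMT3B knockdown libraries overlapped those of Control. Integrin beta 4, ITGB4, rose with DNMT1 knockdown (0.62, adjusted p = 6.23e-16) and was not called with DNMT3B knockdown (-0.06, adjusted p = 0.146). Whether ZKSCAN3 had a part in any of these changes was not tested.

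**Figure D4:**
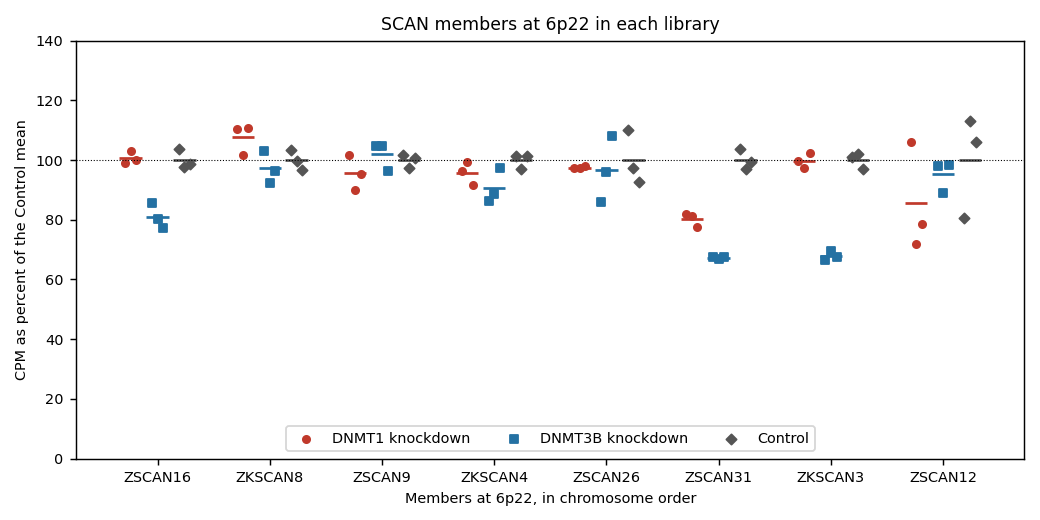
CPM in each library as percent of the gene's Control mean (dotted line at 100) for the 8 tested members at 6p22 in chromosome order, with circles for DNMT1 knockdown, squares for DNMT3B knockdown, diamonds for Control and bars for group means. ZSCAN31 and ZKSCAN3 sit near 67 to 68% with DNMT3B knockdown, and the 3 groups overlap for ZKSCAN8, ZSCAN9, ZKSCAN4, ZSCAN26 and ZSCAN12.

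At 19q13.43, 2 of 7 SCAN members were tested, and both rose with DNMT1 knockdown, as did 21% of all tested genes. ZSCAN22 (chromosome 19, 58327019 to 58342332) was at 22.9, 25.5 and 21.4 CPM with DNMT1 knockdown, 19.5, 21.5 and 20.7 CPM with DNMT3B knockdown and 19.1, 18.7 and 18.6 CPM in Control. DNMT1 knockdown lay above Control in all 3 libraries (0.31 ± 0.061, adjusted p = 0.000139), and so did DNMT3B knockdown, without passing the test (0.13, adjusted p = 0.0983). ZSCAN5A (chromosome 19, 56219670 to 56368383) was at 13.6, 12.8 and 13.1 CPM with DNMT1 knockdown, 11.5, 10.9 and 10.5 CPM with DNMT3B knockdown and 10.8, 10.6 and 11.6 CPM in Control, higher with DNMT1 knockdown (0.26 ± 0.07, adjusted p = 0.00322) and overlapping Control with DNMT3B knockdown (adjusted p = 0.936). Its near copies ZSCAN5B and ZSCAN5C could share reads with it. The difference between the knockdowns was called for ZSCAN5A (0.27, adjusted p = 0.00349) and ZSCAN22 (0.18, adjusted p = 0.0197), and the second was lost under DESeq2 (adjusted p = 0.0612), without DNMT3B knockdown replicate 1 (adjusted p = 0.0965) and without DNMT1 knockdown replicate 2, where it was 0.11 (adjusted p = 0.181).

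At 7q22 ZKSCAN1 (chromosome 7, 100015572 to 100041689), host gene of an abundant circular RNA, was at 189, 185 and 187 CPM with DNMT1 knockdown, 169, 164 and 169 CPM with DNMT3B knockdown and 153, 152 and 153 CPM in Control. The 3 groups were separate and tight (0.29 ± 0.032, adjusted p = 1.04e-08; 0.13 ± 0.033, adjusted p = 0.00134; between the knockdowns 0.16, adjusted p = 0.000159), and these counts do not separate linear from circular transcripts. Its neighbours ZKSCAN5, ZSCAN21 and ZSCAN25 were not called against Control (adjusted p 0.0535 to 0.978). ZSCAN21 shares 41.1% of its exon bases with ZNF3 on the other strand.

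Of the remaining SCAN members, ZSCAN2 (chromosome 15, 84600986 to 84627796) was at 31.9, 33.6 and 30.2 CPM with DNMT1 knockdown, 28.7, 26.7 and 26.7 CPM with DNMT3B knockdown and 22.7, 24.7 and 23.8 CPM in Control. All knockdown libraries exceeded all Control libraries and DNMT1 knockdown exceeded DNMT3B knockdown (0.43 ± 0.054, adjusted p = 1.11e-07; 0.21 ± 0.056, adjusted p = 0.00215; between them 0.22, adjusted p = 0.00163). An antisense transcript covers 25.1% of its exon bases. ZSCAN30 (chromosome 18, 35251058 to 35290245) was at 14.9, 14.7 and 14 CPM with DNMT1 knockdown, 14.2, 14 and 13.1 CPM with DNMT3B knockdown and 10.5, 11.7 and 10.1 CPM in Control, higher in every knockdown library (0.44 ± 0.071, adjusted p = 8.23e-06, and 0.36 ± 0.072, adjusted p = 0.000109).

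ZKSCAN7 (chromosome 3, 44555193 to 44594173), a low gene with 35 to 65 reads a library, was at 2.39, 1.53 and 1.83 CPM with DNMT1 knockdown, 2.62, 2.32 and 2.49 CPM with DNMT3B knockdown and 1.49, 1.30 and 1.48 CPM in Control. It rose 1.74-fold with DNMT3B knockdown (0.80 ± 0.17, adjusted p = 0.000216). The DNMT1 knockdown libraries, the most scattered, were also above Control without passing the test (0.43 ± 0.18, adjusted p = 0.054), and without DNMT1 knockdown replicate 2, the lowest of them, they were called higher (0.56, adjusted p = 0.0195). With all libraries kept, that test also passed with library totals, with a minimum of 1 CPM in 3 libraries and with a replicate block (adjusted p = 0.0493, 0.0464 and 0.0454). The difference between the knockdowns was -0.37 ± 0.17 (adjusted p = 0.0698), and -0.56 without DNMT1 knockdown replicate 1 (adjusted p = 0.0144). ZSCAN32 (-0.17, adjusted p = 0.00461) and ZSCAN29 (-0.11, adjusted p = 0.0162) fell with DNMT1 knockdown, the second call being lost without single libraries. A neighbour on the other strand covers 72.3% of the ZSCAN32 exon bases, so its value is uncertain. ZKSCAN2 fell with DNMT3B knockdown (-0.15, adjusted p = 0.00594; 0.09, adjusted p = 0.0827 with DNMT1 knockdown), a call lost without DNMT3B knockdown replicate 3, and ZSCAN20 rose with DNMT3B knockdown (0.15, adjusted p = 0.00215).

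**Figure D5:**
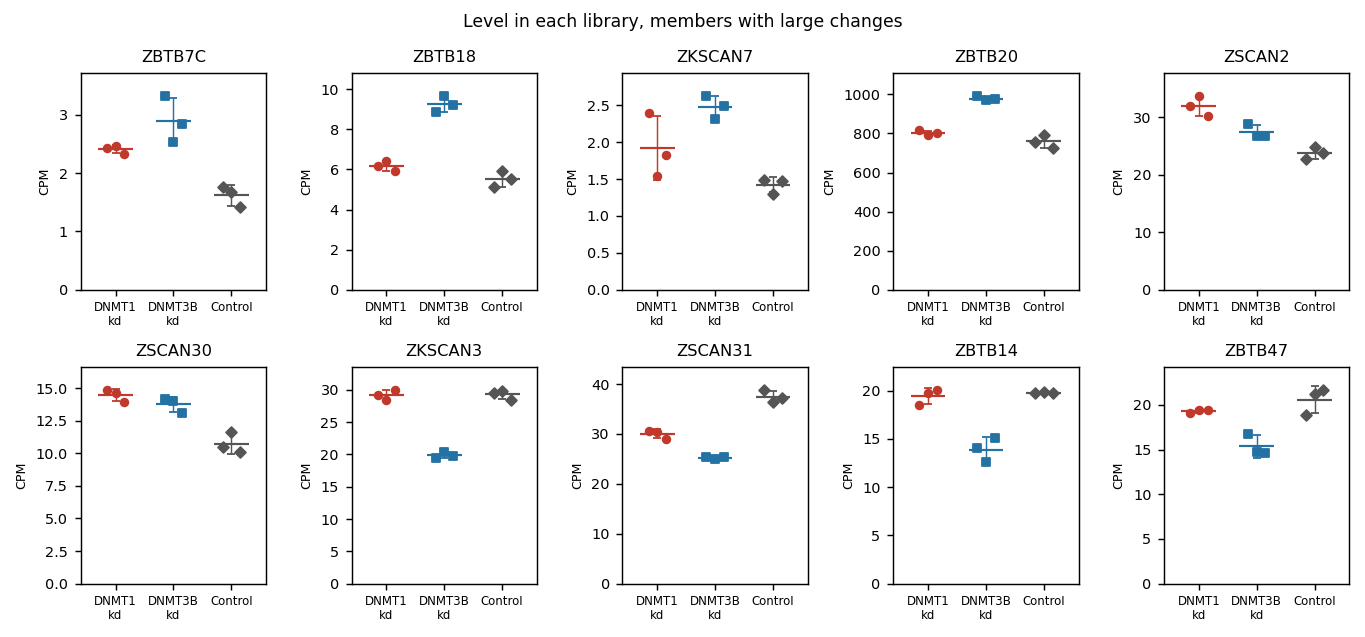
CPM in each library (points), with group mean and SD (n = 3), of 10 members with large changes, in DNMT1 knockdown, DNMT3B knockdown and Control. ZBTB7C, ZBTB18 and ZKSCAN7 are highest and ZKSCAN3, ZSCAN31, ZBTB14 and ZBTB47 lowest with DNMT3B knockdown, while ZSCAN2 is highest with DNMT1 knockdown and ZSCAN30 is higher in both knockdowns than in Control.

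BTB zinc finger genes with other names moved within the range of the tested members, apart from BCL6. Of 8 such genes 2 rose and 1 fell with DNMT1 knockdown and 2 rose and 2 fell with DNMT3B knockdown (median log2 fold changes 0.071 and 0.042), 37.5% and 50% of them against 41.8% and 47.7% of all tested genes. BCL6, the germinal centre repressor that recruits NCOR and BCOR, was at 74.9, 78 and 73.4 CPM with DNMT1 knockdown, 43, 39.1 and 40.4 CPM with DNMT3B knockdown and 82.8, 87.8 and 85.3 CPM in Control. It fell 2.08-fold with DNMT3B knockdown (-1.06 ± 0.043, adjusted p = 3.3e-19), more than any tested ZBTB member, and by 0.18 on the log2 scale with DNMT1 knockdown (adjusted p = 0.000552). BCL6B, a low gene at 0.779 CPM in Control, rose with DNMT3B knockdown to 1.37 CPM (0.79 ± 0.22, adjusted p = 0.00429). It was not called with DNMT1 knockdown (0.52, adjusted p = 0.0731). PATZ1 was higher with DNMT1 knockdown (0.12, adjusted p = 0.00699) and lower with DNMT3B knockdown (-0.23, adjusted p = 5.72e-06), and HIC2 rose in both (0.21 and 0.37, adjusted p = 0.0018 and 6.53e-07). Of 27 SCAN genes with other names, 25 were tested, and 4 rose and 5 fell with DNMT1 knockdown and 1 rose and 5 fell with DNMT3B knockdown, 36.0% and 24% of them against 41.8% and 47.7% of all tested genes (median log2 fold changes 0.029 and -0.027). ZNF232 (-0.37 and -0.36, adjusted p = 5.65e-05 and 6.19e-05) and ZNF263 (-0.25 and -0.16, adjusted p = 1.89e-05 and 0.00283) fell in both knockdowns. ZNF397 rose with DNMT1 knockdown (0.21, adjusted p = 5.24e-05), and ZNF202 (-0.12 with DNMT1 and -0.21 with DNMT3B knockdown, adjusted p = 0.028 and 0.000272) and PGBD1 (-0.22 and -0.28, adjusted p = 0.0176 and 0.00261) fell in both.

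Of 17 BTB co-repressors and CUL3, 14 differed between the knockdowns (82.4%, against 45.2% of all tested genes). In the BTB and SCAN lists with other names this held for 3 of 8 (37.5%) and 7 of 25 (28%). Of the KRAB silencing genes given below it held for 8 of 15 (53.3%). Small lists ran from 1 of 3 ICF partners (33.3%) to 100%. The 100% was reached by 5 of 5 reported ZKSCAN3 targets, 4 of 4 genes around MIZ1 and 2 of 2 around Kaiso. The 1 ICF partner was DNMT3B, itself a knockdown target, so its call was set by the design. CDCA7 and HELLS were not called between the knockdowns. Against Control, 7 of the 17 rose and 1 fell with DNMT1 knockdown (median log2 fold change 0.077). With DNMT3B knockdown 3 rose and 8 fell (median -0.062). These are 47.1% and 64.7% of the 17, against 41.8% and 47.7% of all tested genes. Set directly against each other 11 of the 17 were higher and 3 lower in DNMT1 knockdown. That is 64.7% and 17.6%, against 24.3% and 20.9% of all tested genes. HDAC4, a class II histone deacetylase, was at 51.9, 51.7 and 51 CPM with DNMT1 knockdown, 28.6, 28.5 and 27 CPM with DNMT3B knockdown and 49.7, 48.9 and 49.1 CPM in Control, 1.76-fold lower with DNMT3B knockdown (-0.81 ± 0.045, adjusted p = 8.58e-16). TBL1XR1, of the NCOR complex, was lower there too (-0.56, adjusted p = 1.62e-14). BCOR rose with DNMT1 knockdown (0.19, adjusted p = 0.000286) and fell with DNMT3B knockdown (-0.38, adjusted p = 3.76e-09). NCOR1 rose with DNMT1 knockdown (0.23, adjusted p = 9.17e-06), and GPS2, of the same complex, with DNMT3B knockdown (0.47, adjusted p = 7.12e-10). TBL1X, also of that complex, rose with DNMT1 knockdown (0.16, adjusted p = 0.000613) and fell with DNMT3B knockdown (-0.27, adjusted p = 5.22e-07). CUL3 was lower in both (-0.13 and -0.13, adjusted p = 0.00688 and 0.00491).

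Of 15 genes of the silencing machinery that KRAB factors recruit, 4 rose and 2 fell with DNMT1 knockdown and 3 rose and 6 fell with DNMT3B knockdown (median log2 fold changes 0.012 and -0.058). These are 40.0% and 60.0% of the list, against 41.8% and 47.7% of all tested genes. TRIM28, the KRAB co-repressor, was not called (1163 ± 37.9 CPM with DNMT1 knockdown, 1187 ± 41.1 CPM with DNMT3B knockdown and 1140.4 ± 34.9 CPM in Control). TASOR, the core of the HUSH complex, rose with DNMT1 knockdown (0.19, adjusted p = 0.00024) and fell with DNMT3B knockdown (-0.23, adjusted p = 2.47e-05). CBX1, a heterochromatin protein, rose with DNMT1 knockdown (0.15, adjusted p = 0.000354). Its relative CBX3 fell in both (-0.14 and -0.30, adjusted p = 0.00245 and 3.14e-08). The histone methyltransferase SETDB1 (0.22, adjusted p = 4.65e-06) and MORC2 (0.33, adjusted p = 5.57e-08) rose with DNMT3B knockdown. MORC2 was also called higher with DNMT1 knockdown (0.13, adjusted p = 0.0135), where its libraries overlapped Control.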

How the data were processed

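RNA from 9 libraries was analysed from 1 deposited table of raw counts by gene symbol, unscaled by the authors, in which 0 columns lacked a sample. STAR, featureCounts and DESeq2 with GRCh38 are named, per the submitters' processing notes. Versions, annotation and strand use are not stated there, so genes that overlap, lie antisense or have near copies are uncertain.

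R 4.3.3 and edgeR 4.0.16 were used. TMM scaling and the quasi-likelihood fit covered all 9 libraries and the 16660 genes left by filterByExpr, and calls needed an adjusted p (Benjamini-Hochberg, all 16660) under 0.05. Every adjusted p comes from edgeR unless another tool stands beside it. Standard errors are the log2 fold change over the root of F. Alternatives used DESeq2 1.42.0, limma 3.58.1, other scalings and filters, 2-group fits, a replicate block and each library left out.

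Values per library are given for 12 fixed members, and for up to 10 called, non-overlapping members with at least 1 CPM and the largest changes in each knockdown, and 6 between the knockdowns. Others are named by role, and of the partner lists mostly the 3 called genes with the smallest p, with TRIM28 and CUL3 added for their role. MMP7, BCL6 and HDAC4 were given values per library after these were seen, and BCL6B was named for the size of its change. Members and lists were chosen with earlier results of these data known. Coordinates and exon lengths are from GENCODE 29, which held all 69 symbols. Replicates scattered beyond counting noise (chi-square over its degrees of freedom was 1.78 to 3.64), and each library was counted once. On counts simulated for DNMT1 knockdown against Control over 16326 genes, edgeR recovered 84% of 1.25-fold and 90% of 1.5-fold changes, and 8 of 195 calls were false. Only 50 genes were changed at each fold, all above 1 CPM in Control, whereas 41.8% of tested genes were called in the data. The simulated libraries were drawn independently. These rates therefore need not hold for the calls above. The values of 1 called member are not reported here.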

Additional observations from a re-analysis of the deposited data

Results flagged for a closer look

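Members are given here where each knockdown passed the test against Control in the opposite direction and the test between the knockdowns passed too. A difference between the knockdowns follows largely from that rule, so it adds no separate support. The share of all tested genes that meet the rule was not computed. The log2 difference between DNMT1 and DNMT3B knockdown was 0.79 for ZBTB42 (adjusted p = 3.04e-07), 0.59 for ZBTB46 (adjusted p = 3.74e-08), 0.43 for ZBTB22 (adjusted p = 3.34e-05) and 0.33 for ZBTB4 (adjusted p = 5.32e-08), each higher with DNMT1 knockdown in 3 of 3 libraries. For ZBTB11 it was -0.27 (adjusted p = 1.11e-06), lower with DNMT1 knockdown in 3 of 3 libraries. Both calls of ZBTB22 against Control were lost when single libraries were left out, and its DNMT1 knockdown libraries overlapped Control. The DNMT3B knockdown call of ZBTB11 was lost without Control replicate 3. The values are edgeR's, and the comparisons with Control share the same 3 Control libraries.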

How the results depend on the processing

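Counts of members called, in each direction and comparison, stayed within 1.5 times of the values above under the 17 alternatives tried, with 1 exception: leaving out single libraries moved the members called lower with DNMT1 knockdown over a range of 5 to 8, the lowest without Control replicate 1. Of the called members, 17 of 25 with DNMT1 knockdown, 24 of 31 with DNMT3B knockdown and 29 of 36 between the knockdowns were called under every alternative. Among the members with values per library, a call was lost in 28 and gained in 12 combinations of a test and an alternative, and the direction turned in none; the cause was not tested. No pairing by replicate number was detected, which does not show that libraries were prepared apart. Deviations of same-numbered libraries from their group means correlated at -0.061 to 0.042, and those of differently numbered libraries at -0.039 to 0.060. With the number as a replicate block the members called were 18 higher and 8 lower with DNMT1 knockdown, 17 and 14 with DNMT3B knockdown, and 20 and 16 between the knockdowns. With DESeq2 they were 14 and 6, 16 and 13, and 19 and 14. Depth limits the 8 members with few or no counts, of which a count of 0 allows up to 0.162 CPM in the shallowest library.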
